A study of Sus scrofa with 4 samples.

Results

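A group of 8 genes known as markers of fibroblast classes of the lung were followed in pig lung cells sorted by a reporter for LGR5. PI16, SCARA5, DPP4 and CD34 mark adventitial fibroblasts, and TCF21, NPNT, INMT and LIMCH1 mark alveolar fibroblasts. The genes were chosen by symbol, and 7 of the 8 had a row among the 29263 genes of the count tables. SCARA5, a scavenger receptor that binds ferritin, had no row under its symbol and was not analysed here. All 4 libraries came from lungs of pigs of the genotype LGR5-H2B-GFP knock-in, so the control fraction carries it as well. The knock-in makes cells that transcribe LGR5 produce green fluorescent protein fused to a histone. Cells were sorted into a bright fraction (GFP-HI, 2 libraries) and a fraction without fluorescence (GFP-NEG, 2 libraries), each with biological replicates 1 and 2. Whether libraries with the same replicate number came from the same animal is not established, so folds between them are descriptions of those libraries. The shared protocol text covers adult and fetal lungs, and only the name of the deposited comparison table contains the words adult pig. Neither the sex of the animals nor the gates of these libraries are given in the sources used here.

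Lung fibroblasts fall into classes by position. Adventitial fibroblasts lie in the connective tissue cuffs around large vessels and airways, and their markers are shared with fibroblasts of the adventitia of many organs. Alveolar fibroblasts lie in the walls of the air sacs, next to the epithelium and the capillaries, and support alveolar type 2 cells. Several of the markers are also made by other lung cells: CD34 by endothelium, DPP4 by lymphocytes and epithelium, and NPNT and LIMCH1 by alveolar epithelium.

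The GFP-HI libraries held 24200550 and 24689986 counts and the GFP-NEG libraries 6292253 and 7045652, so that the group and the depth cannot be told apart. One count was worth 0.0453 to 0.0496 CPM (counts scaled to library size and edgeR's TMM factors) in GFP-HI and 0.110 to 0.155 CPM in GFP-NEG. LGR5 itself was at 146 and 152 CPM in the GFP-HI libraries and at 1.55 and 0.767 CPM in the GFP-NEG libraries, as the sort labels state. The 6 general fibroblast genes (COL1A1, COL1A2, COL3A1, PDGFRA, LUM and FBLN1) summed to 74184 and 60868 CPM in GFP-HI. Their sum was 23770 CPM in GFP-NEG replicate 1 and 8704 CPM in GFP-NEG replicate 2, so the negative fraction also held fibroblast transcripts, and its replicates differed in them.

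Markers of both fibroblast classes were higher in GFP-HI: PI16 and CD34 among the adventitial genes, and INMT and TCF21 among the alveolar genes. DPP4 was lower, and LIMCH1 and NPNT did not pass the threshold. The threshold was an adjusted p-value under 0.05 in edgeR's quasi-likelihood test over 19682 genes, with Benjamini-Hochberg adjustment. Of the 7 genes, 4 were called higher and 1 lower, where 8.35% of all tested genes were called higher and 27.6% lower. Among the genes with a mean of at least 10 CPM, a range that holds all 7, the shares were 15.2% and 10.7%. Of the higher genes, TCF21 passed only narrowly (adjusted p of 0.047, edgeR) and did not pass with DESeq2 (0.43). The median log2 fold change was 1.74 over the 7 genes and -0.25 over all tested genes. Both GFP-HI libraries were above both GFP-NEG libraries for 5 genes and below both for 1, against 27.7% and 42.0% of all tested genes. In sorted bulk samples, fewer cells of a type and less RNA per cell cannot be told apart.

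**Figure D1:**
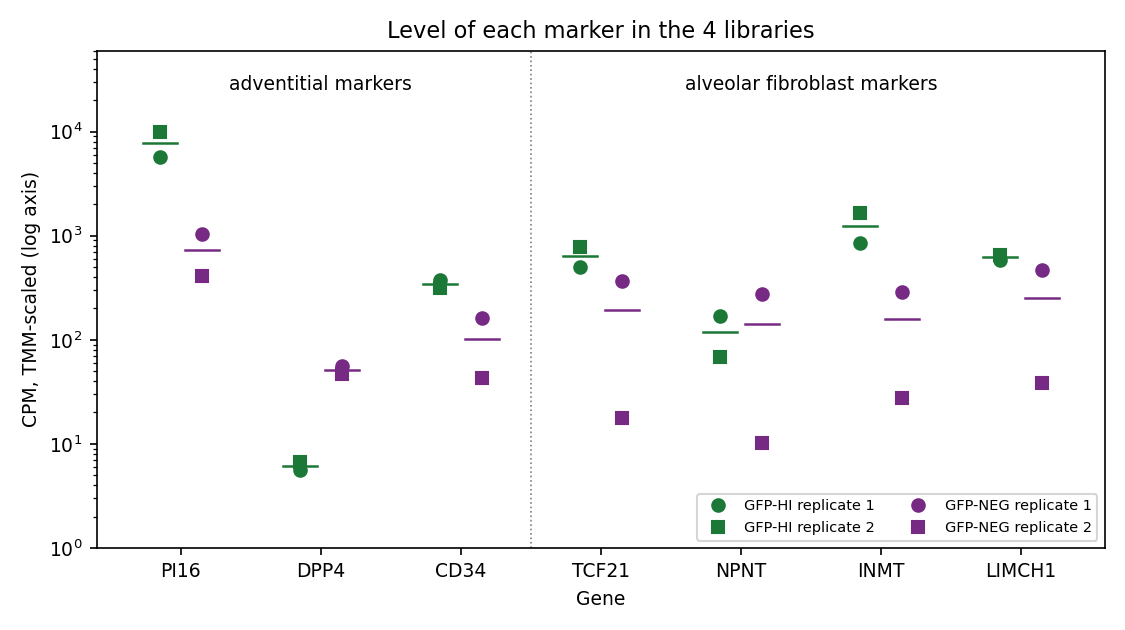
Level of each marker in each library, in TMM-scaled CPM on a log axis; green is GFP-HI, purple is GFP-NEG, circles are replicate 1, squares are replicate 2 and short lines are the means of 2 libraries. DPP4 is the gene with both GFP-HI libraries below both GFP-NEG libraries, and the 2 GFP-NEG libraries lie far apart for TCF21, NPNT, INMT and LIMCH1; heights are not per length and are not to be compared between genes.

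Among the adventitial genes, PI16 encodes a secreted peptidase inhibitor family protein and marks adventitial fibroblasts in many organs. Its level was 5693 and 10028 CPM in the GFP-HI libraries, and 1044 and 407 CPM in the GFP-NEG libraries. The groups did not overlap, and the lower GFP-HI library was above the higher GFP-NEG library. PI16 took 0.519% and 0.819% of the GFP-HI libraries, and 0.107% and 0.0526% of the GFP-NEG libraries. The log2 fold change of 3.44 ± 1.31 (SE; 95% interval 0.87 to 6.01) is a 10.8-fold difference (adjusted p of 0.027, edgeR). The fold was 5.45 between the libraries of replicate 1 and 24.7 between those of replicate 2.

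CD34 encodes a sialomucin of the cell surface found on progenitor cells, endothelium and adventitial fibroblasts. It was at 372 and 313 CPM in GFP-HI, and at 162 and 42.5 CPM in GFP-NEG. Here too the groups did not overlap, with the GFP-HI libraries close to each other and GFP-NEG replicate 2 lowest. In log2 terms the fold change was 1.74 ± 0.65 (SE; adjusted p of 0.023, edgeR). Most genes of blood vessel endothelium, another known source of CD34, were lower in GFP-HI. Of 8 such genes (PECAM1, CDH5, CLDN5, VWF, ERG, KDR, TEK and TIE1), 7 were lower in GFP-HI and 0 were higher, and none was at 0 in any library. By comparison, 27.6% of all tested genes were called lower and 8.35% higher. The summed level of the 8 endothelial genes was 203 to 205 CPM in GFP-HI and 569 to 1329 CPM in GFP-NEG. The part of endothelial RNA in the CD34 values of GFP-NEG was not tested.

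DPP4 encodes a membrane-bound dipeptidase, also called CD26, that is found on adventitial fibroblasts, lymphocytes and epithelium. It was at 5.57 and 6.64 CPM in the GFP-HI libraries (123 and 134 counts). In the GFP-NEG libraries it was at 55.7 and 47.1 CPM (359 and 430 counts). The replicates of each fraction were close, and the groups were far apart, in the opposite direction to PI16 and CD34. Its log2 fold change of -3.07 ± 0.57 (SE; 95% interval -4.19 to -1.96) corresponds to an 8.41-fold lower level in GFP-HI, with an adjusted p of 2.8e-06 (edgeR). For each 1000 counts of PI16 in the same library the GFP-HI libraries held 0.979 and 0.662 counts of DPP4, and the GFP-NEG libraries 53.4 and 116. Genes of T and NK cells, which also make DPP4, were lower in GFP-HI as well. Of CD3D, CD3E, CD3G, CD2, CD5, CD247 and NKG7, 6 of 7 were lower, with summed levels of 107 to 172 CPM in GFP-HI and 594 to 1065 CPM in GFP-NEG. None of these 7 genes was at 0 in any library, and 27.6% of all tested genes were called lower. Other lymphocyte and epithelial genes were lower in part: 4 of 5 B cell, 2 of 5 airway, 1 of 5 alveolar type 2 and 0 of 4 alveolar type 1 genes. In these lists 0 genes were called higher, and the part of any of these cells in the DPP4 difference was not tested. Within GFP-NEG, the T and NK sum was higher in replicate 2. For DPP4 the order of the GFP-NEG libraries turned with the scaling, since DPP4 took 0.00571% of the counts of replicate 1 and 0.00610% of those of replicate 2.

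Among the alveolar genes, INMT encodes an enzyme that methylates tryptamine and other indoles and is abundant in lung. It was at 844 and 1651.5 CPM in GFP-HI, and at 287 and 27.7 CPM in GFP-NEG. Both GFP-HI libraries were above both GFP-NEG libraries, and GFP-NEG replicate 1 was 10.4 times as high as replicate 2. In log2 terms the fold change was 2.99 ± 0.84 (SE; 95% interval 1.33 to 4.64; adjusted p of 0.0019, edgeR). The fold was 2.94 between the replicate 1 libraries and 59.5 between the replicate 2 libraries.

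TCF21 encodes a basic helix-loop-helix transcription factor of the embryonic and adult lung mesenchyme. Its level was 496 and 778 CPM in GFP-HI, and 365 and 17.5 CPM in GFP-NEG. The groups did not overlap, but GFP-HI replicate 1 exceeded GFP-NEG replicate 1 by a factor of only 1.36, whereas the factor was 44.3 for replicate 2. The log2 fold change of 1.74 ± 0.72 (SE) had an adjusted p of 0.047 (edgeR), just under the threshold. DESeq2 gave the same fold change an SE of 1.64. TCF21 lost its call under 8 of 11 alternative analyses, with adjusted p-values from 2.0e-04 to 0.76 over all 11, among them 0.43 with DESeq2.

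LIMCH1 encodes an actin-binding protein that activates non-muscle myosin. It was at 588 and 655 CPM in GFP-HI, and at 469 and 38.8 CPM in GFP-NEG. The groups did not overlap, yet GFP-HI replicate 1 was only 1.25 times GFP-NEG replicate 1. The log2 fold change of 1.29 ± 0.72 (SE) had a 95% interval from -0.12 to 2.71 and did not pass (adjusted p of 0.16, edgeR). It passed in 2 of 11 alternative analyses, with adjusted p-values from 0.0022 to 0.89 over all 11.

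NPNT encodes nephronectin, a matrix ligand of the integrin with the alpha 8 chain, and was the only one of the 7 genes whose groups overlapped. It was at 169 and 68.4 CPM in GFP-HI, and at 273 and 10.2 CPM in GFP-NEG. The highest and the lowest of the 4 values were therefore both in GFP-NEG. GFP-HI replicate 1 was at 0.618 times GFP-NEG replicate 1, and GFP-HI replicate 2 at 6.71 times GFP-NEG replicate 2. The log2 fold change of -0.26 ± 0.57 (SE) had a 95% interval from -1.38 to 0.87 and an adjusted p of 0.77 (edgeR). This interval uses a spread shared over genes and does not reflect the 26.8-fold gap between the GFP-NEG replicates. DESeq2 gave -0.25 ± 1.77 (SE), and without GFP-NEG replicate 1 the edgeR value was 3.59. Genes of alveolar type 1 cells, another known source of NPNT, were likewise high in both replicate 1 libraries. AGER, RTKN2, CLDN18 and AQP5 summed to 150 and 21.8 CPM in GFP-HI replicates 1 and 2, and to 180 and 23.8 CPM in GFP-NEG replicates 1 and 2. None of the 4 was at 0 in any library or differed between the fractions by edgeR (0 at an unadjusted p under 0.05, and 0 by DESeq2). Their part in the NPNT values was not tested.

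The difference between the GFP-NEG replicates was larger for the alveolar genes than for the adventitial genes. GFP-NEG replicate 1 was 10.4 to 26.8 times replicate 2 for the 4 alveolar genes, and 1.18 to 3.81 times for PI16, DPP4 and CD34. A ratio of at least 10, a limit chosen after the values were seen, was found in 4 of 4 alveolar genes and 0 of 3 adventitial genes, where 0.950% of all tested genes reached it. In other genes known from alveolar fibroblasts, 5 of 13 reached it, namely ROBO2, A2M, FGFR4, ITGA8 and GPC3, with a list median of 5.27. In other adventitial genes 0 of 11 reached it, with a median of 3.17. The ratio was 1.95 to 4.28 for the 6 general fibroblast genes, and its median over all tested genes was 0.923. High ratios were also found in genes of other cells. The median was 9.74 for the 4 alveolar type 1 genes, of which 2 reached 10, and 5.36 for 7 smooth muscle and pericyte genes, of which 1 did. Of 6 macrophage and neutrophil genes 1 reached 10 as well, and the part of these cells in the ratios of the markers was not tested. Between the GFP-HI replicates the ratios of the 7 genes ran from 0.511 for INMT to 2.47 for NPNT. For DPP4 the replicates were about equally close in both fractions, with ratios of 0.839 in GFP-HI and 1.18 in GFP-NEG. These ratios are a description of 2 libraries, with no test, and the labels name no batch that separates them.

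**Figure D2:**
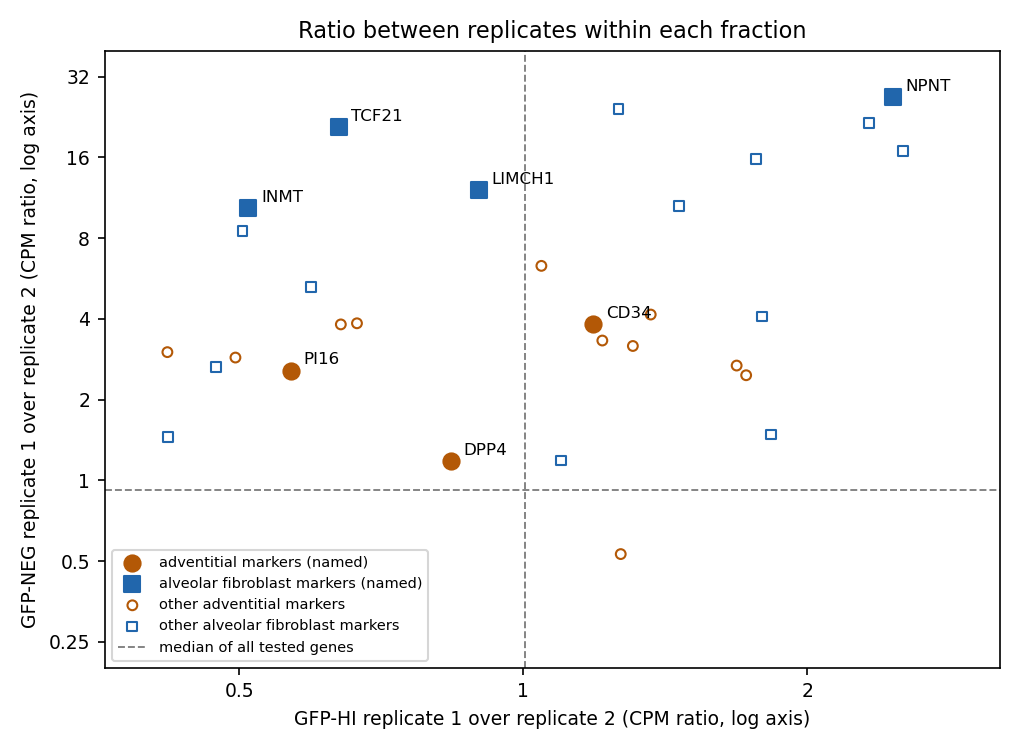
Each point is a gene, with the CPM ratio of replicate 1 over replicate 2 in GFP-HI on the horizontal axis and in GFP-NEG on the vertical axis, both log axes; filled symbols are the 7 named markers, open symbols are other fibroblast genes, and dashed lines are medians of all tested genes. SCN7A is not drawn because GFP-HI replicate 1 has 0 counts; all 4 filled squares (alveolar) lie above a GFP-NEG ratio of 10, and the 3 filled circles (adventitial) lie below 4.

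Other genes of the same classes were taken from 2 lists fixed by name. Of 12 further adventitial genes, 11 were tested (PCOLCE2 had no row), 9 were higher in GFP-HI and 0 were lower, with a median log2 fold change of 2.63. The largest differences were in DPT, which encodes dermatopontin of the collagen matrix (log2 fold change 4.09 ± 0.80 SE), and in GLI1, the transcription factor and target of hedgehog signalling (3.81 ± 0.63 SE). GLI1 was at 42.8 and 33.7 CPM in GFP-HI and at 1.86 and 3.51 CPM in GFP-NEG, which makes it the one gene of this list that was lower in GFP-NEG replicate 1 than in replicate 2. The proteoglycan gene DCN, the microfibril gene MFAP5 and SERPINF1, which encodes an anti-angiogenic serpin, stood at 3.57, 3.33 and 3.08 on the log2 scale. The genes of collagen chains COL15A1 and COL14A1, the surface protein gene CD248 and the secreted Wnt modulator gene SFRP2 were at 2.63, 2.16, 1.99 and 1.58. The 6 general fibroblast genes ran from 1.79 to 4.40, with a median of 2.85. Whether the adventitial list differs from them was not tested. CLEC3B (tetranectin) and IGFBP6 (a binding protein for insulin-like growth factors) did not pass, at 0.37 ± 0.56 and 0.29 ± 0.57 (SE), and their groups overlapped. SFRP2 lost its call in 5 of its 11 alternatives, among them DESeq2 (adjusted p of 0.096) and library size alone (0.068, edgeR). In the fits without 1 library its log2 fold change ran from 0.74 to 3.48. COL14A1 lost its call with library size alone (0.051, edgeR) and in 3 of the 4 fits without 1 library, in a range of 0.0024 to 0.50 over its 11 alternatives.

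Of 14 further alveolar fibroblast genes, 13 were tested (CES1 had no row), 5 were higher in GFP-HI and 2 were lower, with a median log2 fold change of 0.92. The shares over all tested genes were again 8.35% higher and 27.6% lower, with a median of -0.25. The higher genes were the axon guidance receptor gene ROBO2 (3.50 ± 0.60 SE), the glypican gene GPC3 (2.65), the lipid droplet gene PLIN2 (2.40), the BMP ligand gene BMP5 (2.30) and the homeobox gene MEOX2 (2.16). ROBO2 was at 191 and 151 CPM in GFP-HI and at 29.2 and 1.21 CPM in GFP-NEG, and of its 11 alternatives, with adjusted p-values from 1.4e-07 to 0.096, only DESeq2 ended its call. ITGA8, the integrin chain that binds nephronectin, was at 317 and 180 CPM in GFP-HI and at 211 and 13.4 CPM in GFP-NEG. Like NPNT it had overlapping groups and did not pass (log2 fold change 1.15 ± 0.61 SE, adjusted p of 0.14, edgeR). SPINT2, a protease inhibitor gene that epithelium also expresses, was lower in GFP-HI by a log2 fold change of -2.14 ± 0.54 (SE). Without GFP-HI replicate 2 it was at -1.70 and lost its call (adjusted p of 0.10, edgeR, in a range of 6.3e-05 to 0.10 over its 11 alternatives). The sodium channel gene SCN7A, at -3.50, rested on few counts, 0 and 4 for GFP-HI against 12 and 5 for GFP-NEG, and it lost its call under 6 of the 9 alternatives that could test it. A2M, MACF1, SLC7A10, WNT2 and FGFR4, a growth factor receptor gene, did not pass, with log2 fold changes from -1.02 to 0.92.

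**Figure D3:**
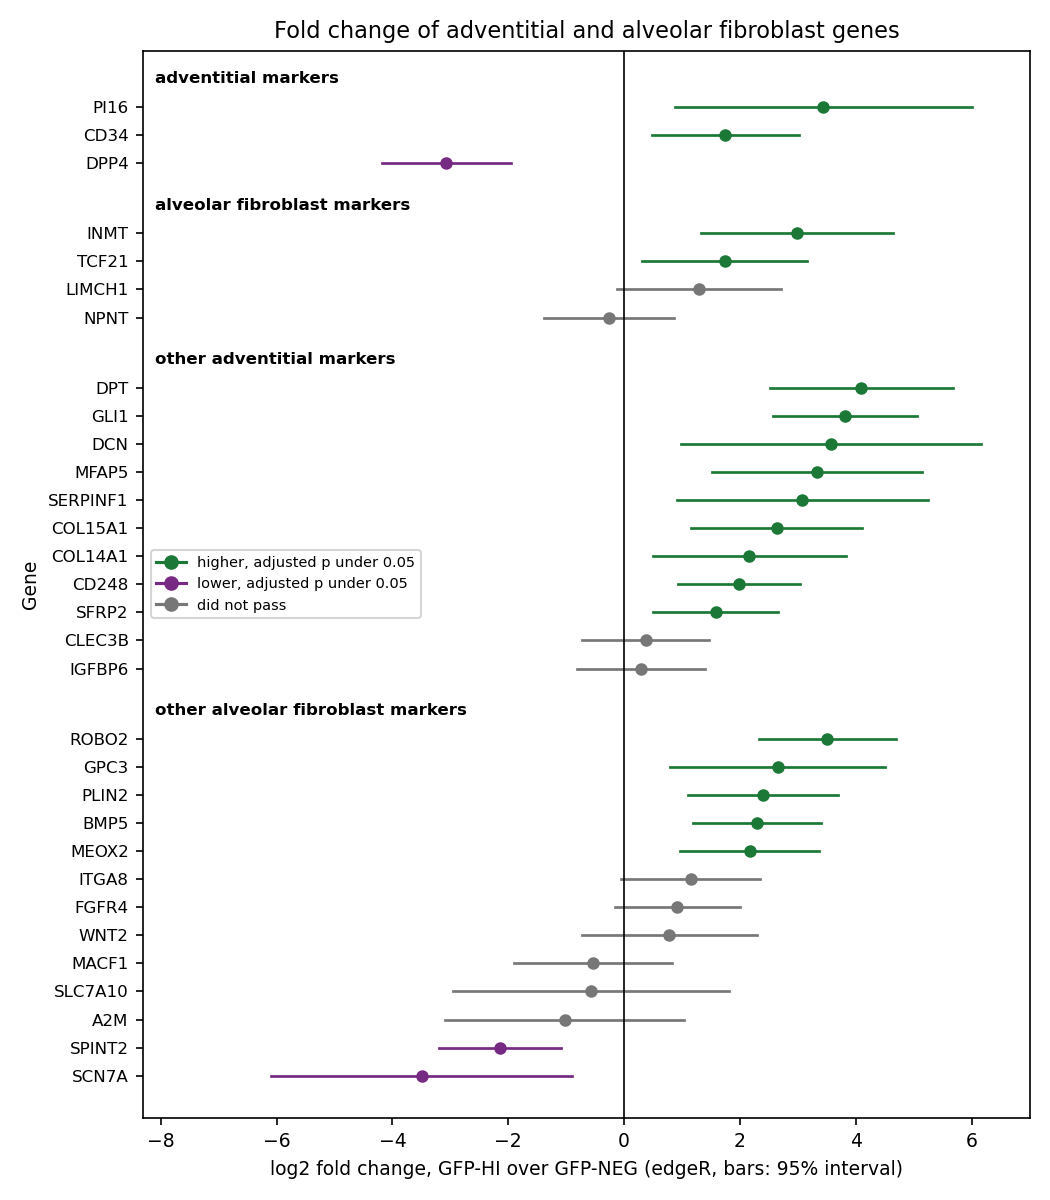
Log2 fold change of GFP-HI over GFP-NEG with its 95% interval from edgeR for the 7 markers and 24 other fibroblast genes, by list; green passed as higher, purple passed as lower, grey did not pass. Among the 3 adventitial markers DPP4 stands at -3.07 against 3.44 for PI16, and the other adventitial genes lie at 0.29 or above.

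The calls of the higher genes depended on which libraries were included. Each fit without 1 library leaves a group with a single library, which is then assumed to vary like the others. Without GFP-NEG replicate 2, 0 of the 7 genes passed as higher by edgeR (1 at an unadjusted p under 0.05). The log2 fold changes were then 2.87 for PI16, 2.08 for INMT, 1.04 for CD34, 0.76 for TCF21 and 0.37 for LIMCH1. In that fit 1.23% of all tested genes were called higher. Without GFP-HI replicate 2, 0 passed as higher as well (3 at an unadjusted p under 0.05), where 3.03% of all tested genes did. PI16 was then at 3.03 (adjusted p of 0.068, edgeR), in a range of 2.7e-07 to 0.17 over its 11 alternatives. Without GFP-HI replicate 1, 2 passed as higher, PI16 and INMT, where 5.23% of all tested genes did. Without GFP-NEG replicate 1, 6 passed, including LIMCH1 at 4.05, TCF21 at 5.23 and NPNT at 3.59, where 7.62% of all tested genes did. DPP4 kept its call in all 11 alternatives, between -3.50 and -2.82. Of the other adventitial genes, 2 passed as higher without GFP-NEG replicate 2 and 5 in the fit that left out GFP-HI replicate 2. Of the other alveolar genes, 1 passed as higher in each of these 2 fits.

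**Figure D4:**
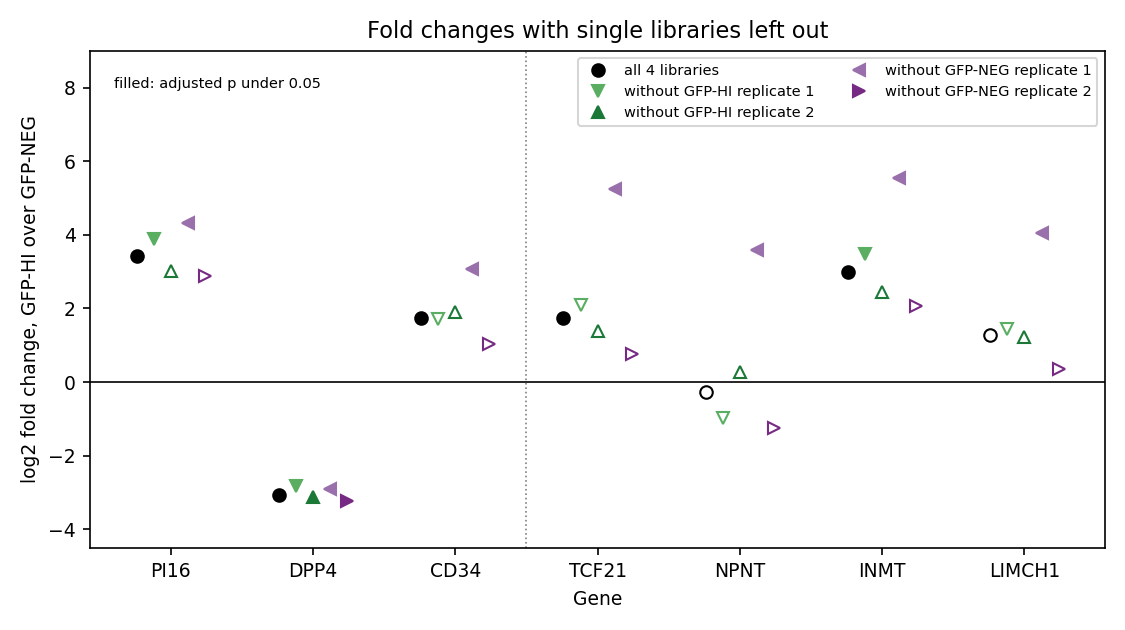
Log2 fold change of GFP-HI over GFP-NEG for each marker with all 4 libraries and with each library left out in turn; filled symbols passed an adjusted p of 0.05 in edgeR. DPP4 stays between -3.23 and -2.82 in the fits drawn, whereas TCF21 runs from 0.76 to 5.23 and NPNT from -1.24 to 3.59.

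Of the 6 general fibroblast genes, PDGFRA, LUM and FBLN1 were called higher in GFP-HI by edgeR, and COL1A1, COL1A2 and COL3A1 did not pass. Both GFP-HI libraries were above both GFP-NEG libraries for all 6, and DESeq2 called all 6 higher. The markers were set against these genes within each library, a step added after the values were seen and given without a test. Per 1000 counts of the 6 general fibroblast genes, PI16 was at 76.7 and 164.7 in GFP-HI and at 43.9 and 46.7 in GFP-NEG. DPP4 was at 0.0751 and 0.109 in GFP-HI and at 2.34 and 5.42 in GFP-NEG. On this scale PI16 remained higher and DPP4 remained lower with no overlap, and the other 5 genes overlapped between the fractions. CD34 was nearly level, at 5.01 and 5.15 in GFP-HI and at 6.83 and 4.89 in GFP-NEG. For TCF21 the GFP-HI values of 6.68 and 12.8 lay between the GFP-NEG values of 15.4 and 2.02, and LIMCH1 had the same order.

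Most of these results changed with the denominator. Set against the collagen genes COL1A1, COL1A2 and COL3A1, PI16 and INMT were higher, DPP4 was lower and 4 genes overlapped. These collagens held most of the counts of the full set of general fibroblast genes, so this denominator and the first are nearly the same measure. INMT was then at 12.5 and 32.4 in GFP-HI and at 12.5 and 3.28 in GFP-NEG, so that its lowest GFP-HI value hardly exceeded the highest GFP-NEG value. Set against PDGFRA, LUM and FBLN1, 0 genes were higher, 5 were lower and 2 overlapped. PI16 then turned to the lower side, at 834 and 1007 in GFP-HI and at 1388 and 1559 in GFP-NEG. DPP4 was lower with all 3 denominators, and CD34 was lower with PDGFRA, LUM and FBLN1 only, at 54.5 and 31.4 in GFP-HI and at 216 and 163 in GFP-NEG. PDGFRA, LUM and FBLN1 stood at 3.53, 3.96 and 4.40 in log2 fold change, above the 3.44 of PI16, whereas the 3 collagens stood at 1.79 to 2.17. The 2 subsets thus divide the 6 genes by their edgeR call in these data. PI16 was the highest of the 7 markers, so the 0 higher genes follow largely from that division. DPP4 had to be lower with each denominator, since it was lower and all 6 genes were above in both GFP-HI libraries.

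**Figure D5:**
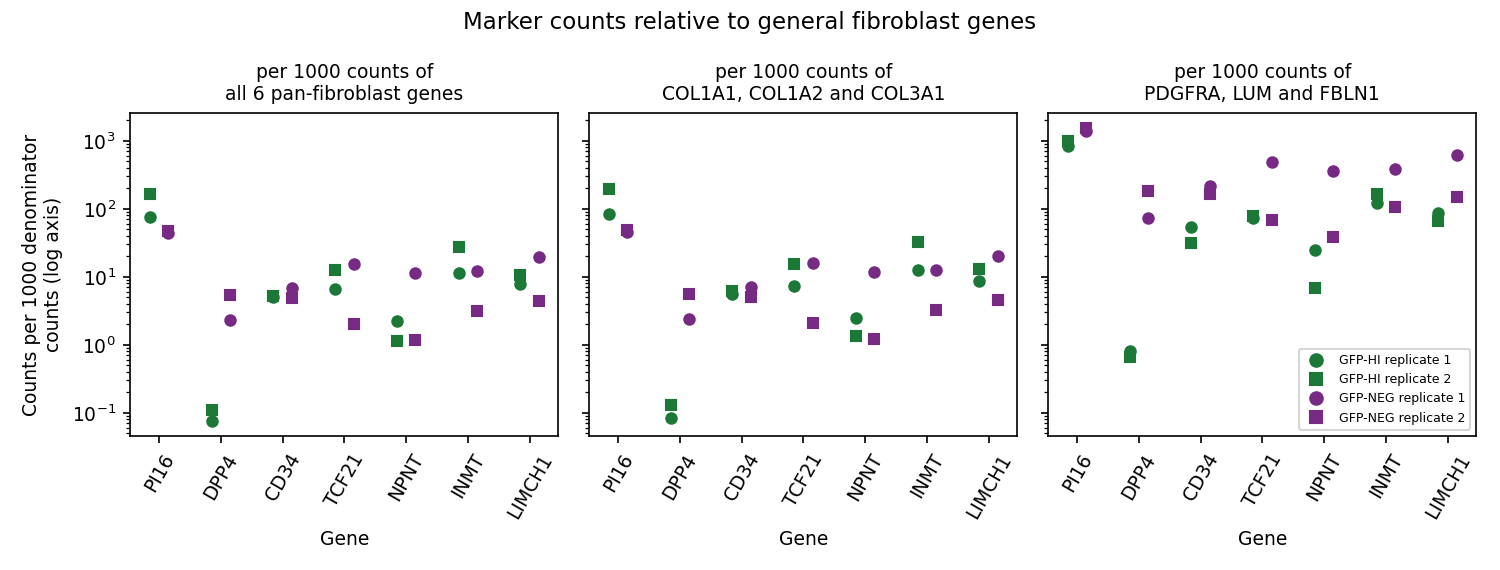
Counts of each marker per 1000 counts of 3 sets of general fibroblast genes in the same library, on a log axis; colours and symbols are those of the levels by library. DPP4 is lower in GFP-HI in all 3 panels. PI16 is higher in the first 2 panels, whose denominators consist mostly of the same collagen counts, and lower in the third. The genes of the third denominator had larger fold changes than any of the 7 markers.

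The genes nearest to each marker in pattern were sought among 9239 other genes with a symbol and a mean of at least 10 CPM. Nearness was the root mean square difference of centred log2(CPM + 1) values over the 4 libraries, with 2 genes kept for each marker. PI16 was nearest to GLT8D2 (0.0931), a glycosyltransferase-like gene, and FGF10 (0.104), a growth factor gene of lung mesenchyme. CD34 was nearest to TBC1D12 and the receptor kinase gene AXL (0.0190 and 0.0194). DPP4 was nearest to REL (0.0398), an NF-kappa-B subunit gene of lymphocytes, and CX3CR1 (0.0936), a chemokine receptor gene of monocytes and NK cells. INMT was nearest to PLAC9 and TCIM (0.195 and 0.217), and LIMCH1 to FIBIN (0.0434) and the transcription factor gene ETV1 (0.142). TCF21 was nearest to RERG (0.262) and HHIP (0.368), which encodes a hedgehog-binding protein. NPNT was nearest to the transferrin gene TF (0.398) and to A2M (0.426), a protease inhibitor gene of the alveolar list. Among the 7 markers themselves, the nearest pair was TCF21 and LIMCH1 (0.483), and DPP4 was at least 2.53 from each of the other 6. These values describe 4 libraries of which 2 differ strongly, and nothing about function follows from them.

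Markers of other cells were present in both fractions. Of 5 B cell genes 4 were lower in GFP-HI, of 6 macrophage and neutrophil genes 3, and the leukocyte gene PTPRC as well. Of 5 alveolar type 2 genes 1 was lower, and of 5 airway genes 2. Over all tested genes 27.6% were called lower and 8.35% higher. Among 7 smooth muscle and pericyte genes, PDGFRB and CSPG4 were higher and 3 were lower. The 1 gene of the mesothelial list that could be tested, KRT18, did not pass (log2 fold change -1.97), and WT1 was at 0 in both replicate 1 libraries. The level of mesothelial cells was therefore not assessed.

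The authors' deposited table calls PI16, INMT and CD34 higher and DPP4 lower at an adjusted p under 0.05. It calls 8.20% of its 16250 genes higher and 11.2% lower. The authors' deposited table gives log2 fold changes of 3.44 for PI16, 2.99 for INMT, 1.74 for CD34 and -3.08 for DPP4. For TCF21 the authors' deposited table gives 1.74 with an adjusted p of 0.43, so this gene is called by edgeR's test and not by theirs. For the markers these deposited values equal those of the DESeq2 alternative used here, so they are not a separate check.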

How the data were processed

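Per the submitters' processing notes, featureCounts, Subread 1.5.2 and DESeq2 1.37.6 were used. The aligner, genome build and strand setting are not given in the sources used here, so overlapping genes are uncertain. The authors deposited a table of raw counts for every library, and a comparison table with log2 fold changes and adjusted p-values, per the file headers. Its 4 columns of normalized values per sample were not used. Ensembl identifiers were replaced by symbols from the gene name table for 834 genes, and 13377 rows had only an identifier.

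The counts were fitted with edgeR 4.0.16 (R 4.3.3) with TMM scaling, filterByExpr (which kept 99.8% of counts) and the group as the only term. Standard errors were taken from each log2 fold change and its F value. The spread of single genes was moderated fully to the common trend. The procedure was tested on simulated data. Titles call the replicates biological, and with 2 libraries in each group p-values cover no variation beyond these samples. The spread they use is the trend over genes, and not how far apart the replicates of the gene itself lay. NPNT and DPP4 each had an SE of 0.57, with GFP-NEG replicate ratios of 26.8 and 1.18.

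Titles give both fractions replicates 1 and 2 without saying that a number marks 1 animal. Headings of the 4 unused columns name pig 1 and pig 2, but 2 of these headings are in doubt, so pairing by animal is not established. Alternatives were RLE, upper-quartile and library-size scaling, no filter, a stricter filter (1 CPM in 2 libraries), the replicate block, DESeq2 1.42.0 and leaving out each library.

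The genes and lists were chosen with earlier results of these data known. The named genes are the 8 markers, LGR5, the genes of both lists of other fibroblast markers, up to 3 genes for each marker list of another cell type beside its sum, and the 2 nearest genes in pattern for each marker. Where a whole marker list is spelled out, it only defines the sum. No sequences are shown because no sequence table was used here.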

Additional observations from a re-analysis of the deposited data

How the results depend on the processing

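The number of genes called higher in GFP-HI was 1643, and it was 1083 with upper-quartile scaling and 888 with library size alone. Leaving out single libraries gave 216 to 1635, and the number called lower (5433) then became 1575 to 4999. Of the 7 markers, 4 were called higher, 2 with library size alone, and 0 to 6 in the fits without 1 library. Over all tested genes the median log2 fold change was -0.25, against -0.58 under upper-quartile scaling and -0.68 under library size alone, and none of the 7 markers changed direction with it. CD34 lost its call with library size alone (adjusted p of 0.052, edgeR, in a range of 0.0096 to 0.61 over its 11 alternatives).

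With the replicate number as a block, the fit gave 1707 genes higher and 4793 lower, with 5 markers higher and 1 lower. Whether the number marks a shared animal is not established, since 2 of the headings that name pigs are in doubt. The deviations of same-numbered libraries from their group means correlated across genes with an r of 0.190. The block added the calls of LIMCH1, ITGA8 and FGFR4, at log2 fold changes of 2.20, 2.15 and 1.86, and SCN7A was not called. It turned the sign of NPNT (to 1.00) and A2M (to 0.13), neither past the threshold, and changed no other call among the 7 markers and 24 other fibroblast genes. Library size alone turned IGFBP6 to -0.038. Leaving out single libraries turned the sign of genes that had not passed: the log2 fold changes ran from -1.24 to 3.59 for NPNT, from -1.997 to 2.52 for A2M, from -0.18 to 1.21 for CLEC3B, from -0.35 to 1.40 for IGFBP6, from -0.039 to 4.13 for FGFR4, from -1.27 to 0.85 for MACF1 and from -1.17 to 0.32 for SLC7A10. The smaller depth of GFP-NEG limits low genes such as SCN7A, since 3 counts there are worth 0.329 to 0.466 CPM.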
